A study of Mus musculus with 14 samples.

Results

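Transcripts of 10 pluripotency factors were followed in single ovulated mouse oocytes. The members were taken by name (Pou5f1, Sox2, Sall4, Klf4, Klf5, Klf17, Esrrb, Zfp42, Lin28a and Lin28b) from the 24064 genes of the count table by a rule that uses no measured value, though with earlier results of these data known. The oocytes fell into 3 genotypes for Kdm1a (also called Lsd1), which encodes a histone demethylase. Of the 5 control oocytes, 4 were wt/wt and of the C57BL/6J strain (wt1, wt3, wt4 and wt5). The other control, C3, was f/f: it carried floxed Kdm1a alleles with no Cre, on a mixed B6;129 background. The 5 mutants, named D1, D2, D3, D4 and D7 and also of mixed B6;129 strain, carried the floxed alleles together with Zp3-cre, a transgene driven by a promoter active in growing oocytes, so the deletion took place in the oocyte itself. The methods give an age of 4 to 8 weeks for the f/f and mutant females that were mated for embryos, and none for the oocytes by name. The number of animals behind the oocytes was not given in the sources used here, so p-values measure the spread between these oocytes.

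C3 was the only control that shared strain and library naming with the mutant oocytes, so genotype cannot be told apart from strain or library series in a comparison with wt/wt oocytes alone. For that reason the value of C3 is given for every member. C3, D3, D4 and D7 are each the sum of a pair of libraries with the same oocyte name. The descriptions number those libraries as separate oocytes, and for the second C3 library the count table writes the digit and letter of the name in swapped order, so the labels do not settle whether each pair is 1 oocyte. Summed this way, each group has as many oocytes as the methods describe. The oocytes had 1375187 to 6928548 counts, and levels are given as CPM, counts per 1000000 of a library size adjusted by TMM, a scaling that assumes most genes do not differ. A CPM is relative to the other transcripts of the same oocyte and says nothing of its total RNA. At that depth 3 counts stood for 0.456 to 1.83 CPM. Kdm1a itself fell from 50.5 ± 55.9 CPM (SD, n = 5) in control oocytes, where C3 was highest with 149 CPM, to 1.62 ± 1.97 CPM (SD, n = 5) in mutant oocytes (edgeR quasi-likelihood adjusted p = 0.0011), a log2 fold change of -5.02 that was -4.05 without C3 and -5.97 without D7. All 16 listed oocyte markers had counts, whereas 11 of 18 markers of cumulus and granulosa cells, the somatic cells around the oocyte, had none in any oocyte.

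An egg stops transcribing before ovulation, so the messages it holds are those it stored while growing, until the embryo's own genome is switched on. POU5F1 (OCT4) and SOX2 bind DNA side by side at the enhancers of pluripotent cells, where KLF zinc finger proteins, the nuclear receptor ESRRB and the zinc finger protein SALL4 add to the same network. LIN28A and LIN28B are RNA-binding proteins that block maturation of the let-7 microRNAs, and ZFP42 (REX1) is a zinc finger relative of YY1 used as a marker of embryonic stem cells.

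The wt/wt oocytes did not hold these factors at like levels. Divided by transcript length, Sall4 stood at 223 CPM per kilobase (range 179 to 287 over 4 oocytes), above 97.6% of the genes tested. Klf17 followed with 62.5 (55.5 to 76.6), then Pou5f1 with 11.5 (6.61 to 17.5), Lin28a with 7.17 (4.43 to 8.58), Esrrb with 4.34 (3.55 to 5.90) and Lin28b with 2.51 (1.36 to 3.41). Sox2 with 1.76 (0.654 to 2.69), Klf4 with 1.43 (0.296 to 2.19) and Zfp42 with 0.529 (0 to 0.977) came last among those counted, and Klf5 had no count. In that order Sall4, Klf17 and Pou5f1 were separate from each other and Esrrb from Lin28b, but the other neighbours overlapped. At this depth the data do not show Klf5, with 0 counts, or Zfp42, with 0 to 4 counts an oocyte, as stored messages. Because the cDNA was primed at the poly(A) tail and covers at most the last 3 kb of a message, the amount of a message and the length of its tail cannot be told apart, and the level per kilobase of a longer transcript is understated.

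In mutant oocytes the top of this order changed. Klf17 came first with 313 CPM per kilobase (169 to 439) and Sall4 second with 150 (77.2 to 236), and these ranges overlapped. In C3 Sall4 was first with 461 and Klf17 second with 329. The 10 members together took 0.153 to 0.222% of all counts in wt/wt oocytes, 0.209% in C3 and 0.0713 to 0.2003% in mutant oocytes.

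**Figure D1:**
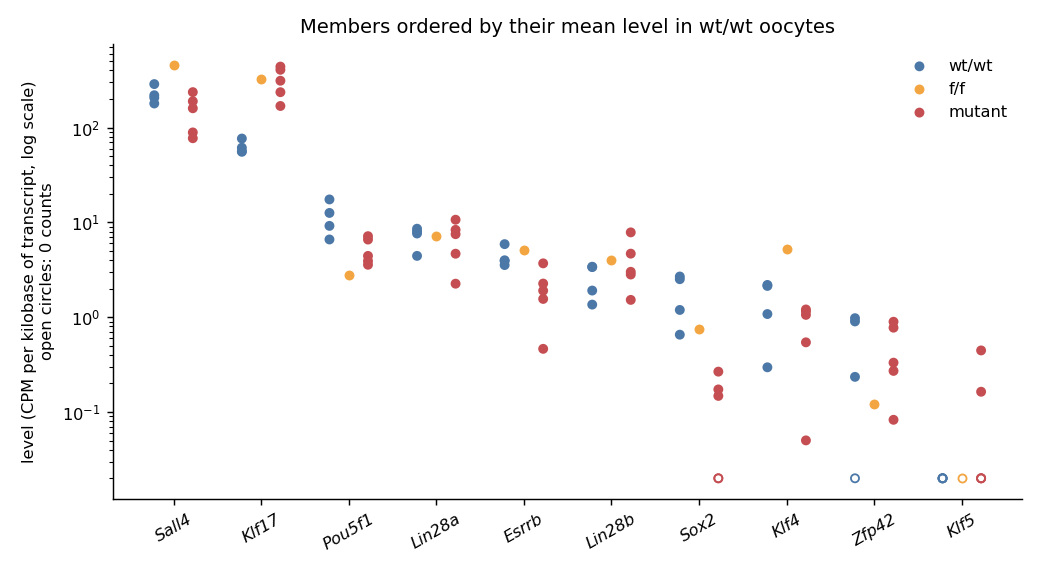
Level of each member in every oocyte, in CPM per kilobase of transcript on a log axis, ordered by the wt/wt mean; each point is an oocyte and open circles mark 0 counts. Sall4 and Klf17 lie far above the other 8 members in every genotype, and the mutant points of Klf17 (169 to 439) lie above all wt/wt points (55.5 to 76.6).

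Of the 10 members, 8 had enough counts to be tested between the 5 mutant and the 5 control oocytes with edgeR's quasi-likelihood test, adjusted over 9198 genes by the Benjamini-Hochberg method. A call needed both an adjusted p under 0.05 and a log2 fold change of at least 1 in size. Klf17 was called higher and Sox2 lower, and the other 6 were not called. Of all genes tested 14.7% were called higher, 11.2% lower and 25.9% in either direction, so 2 calls among 8 members is close to the share among all genes. With library totals in place of TMM the balance turned, to 10.5% called higher (963 genes) and 18.1% lower (1668 genes). The median change of these 8 members was -0.89 on the log2 scale, beside 0.17 over all genes, and 6 of them had a negative value. Against C3 alone the median over the 7 members tested there, Sox2 not among them, was -0.09, beside 0.31 over all genes. In TMM-adjusted CPM Sox2 was the only member for which mutant and control oocytes did not overlap, which held for 16.2% of all genes. In CPM taken from library totals Sall4 and Esrrb did not overlap either. For Sall4 the lowest control was then 1239 and the highest mutant 1038, and for Esrrb 14.1 and 12.4. Against the 4 wt/wt oocytes alone the same 2 members were called, and 31.5% of all genes were. Against C3 alone none of the 7 members then tested was called, and only 3 genes of the whole table were. With 1 control oocyte that fit takes the spread from the mutant oocytes.

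**Figure D2:**
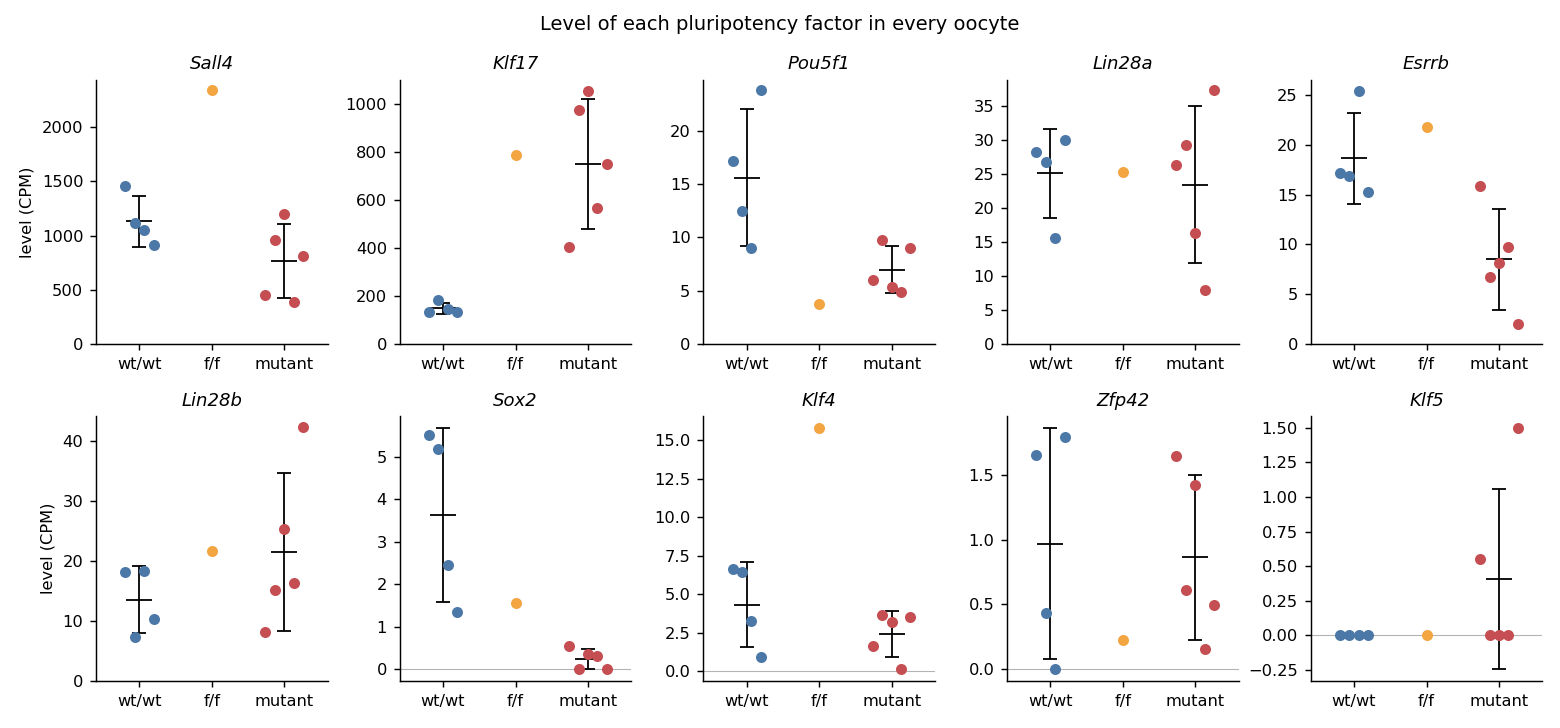
Level of each member in CPM in every oocyte, by genotype; points are oocytes, bars the mean ± SD of the 4 wt/wt and 5 mutant oocytes, and f/f is the single oocyte C3. Klf17 in C3 (789 CPM) lies among the mutant oocytes (405 to 1055). Sox2 in C3 (1.55 CPM) lies among the wt/wt oocytes (1.35 to 5.53) in these TMM-adjusted CPM. In CPM taken from library totals it is 1.01, below the wt/wt oocytes (1.83 to 7.27).

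Klf17 and Sox2 were the 2 members called, a share close to that among all genes. The 250 bases upstream of their RefSeq starts are shown first as a description, on the sense strand of GRCm38.p6. The Klf17 stretch is chr4:117765667-117765916 (minus strand) and the Sox2 stretch is chr3:34649745-34649994 (plus strand). For Sox2 the RefSeq and GENCODE starts differ: the stretch does not reach the GENCODE start at 34650405. Capitals mark a KLF box (CACCC or its reverse complement GGGTG) and a SOX motif (ACAAAG or CTTTGT).
Klf17: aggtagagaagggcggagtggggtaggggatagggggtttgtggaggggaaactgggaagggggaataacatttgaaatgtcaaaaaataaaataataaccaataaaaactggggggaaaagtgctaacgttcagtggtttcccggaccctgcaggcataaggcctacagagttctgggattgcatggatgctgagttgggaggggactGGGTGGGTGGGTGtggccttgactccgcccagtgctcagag
Sox2: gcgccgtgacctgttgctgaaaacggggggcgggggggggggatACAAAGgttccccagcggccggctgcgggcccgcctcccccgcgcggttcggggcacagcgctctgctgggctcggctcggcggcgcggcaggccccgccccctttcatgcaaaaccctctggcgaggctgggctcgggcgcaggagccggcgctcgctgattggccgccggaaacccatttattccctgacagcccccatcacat
The Klf17 stretch held the KLF box 3 times, in overlapping copies, and the Sox2 stretch held the SOX motif once. At least 1 KLF box occurred in 52.0% and a SOX motif in 16.5% of the 32851 upstream stretches of this length in the RefSeq table. Neither stretch held the octamer ATGCAAAT, the letters that POU factors bind, on either strand, which 1.6% of all stretches did, or the letters TATAAA, which 12.4% did. A match of so few letters describes the sequence and is not a measured binding site.

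Klf17 encodes a zinc finger factor first described from germ cells. Its gene spans 117757836 to 117765648 of chromosome 4 (GRCm38, which is mm10, minus strand) and overlaps no other annotated gene. Its level was 135, 184, 147 and 133 CPM in wt1, wt3, wt4 and wt5, 789 CPM in C3, and 405, 976, 1055, 567 and 748 CPM in D1, D2, D3, D4 and D7. All mutant oocytes thus lay above all wt/wt oocytes, but C3, the control of the same strain, lay within the mutant range. Mutant oocytes (750 ± 272 CPM, SD, n = 5) were 2.70-fold higher than all controls (278 ± 287 CPM, SD, n = 5), or 1.43 on the log2 scale (standard error, SE, 0.51, adjusted p = 0.0478). Against wt/wt oocytes alone the log2 fold change was 2.34 (SE 0.35, adjusted p = 0.000278), and against C3 alone it was -0.05 (SE 0.65, adjusted p = 0.977). The call over all controls was lost when any oocyte other than C3 or D1 was left out, with adjusted p-values of 0.0528 to 0.111 in those 8 fits. Between the paired libraries of C3, D3, D4 and D7, the Klf17 share of counts differed 1.22- to 1.67-fold within an oocyte.

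Sox2 encodes an HMG-box factor that opens chromatin together with POU5F1. It lies on chromosome 3 from 34650405 to 34652461 on the plus strand, inside the longer transcript Sox2ot on the same strand but sharing no exon with it. It had 10, 12, 6 and 3 counts in wt1, wt3, wt4 and wt5, 7 counts in C3, and 1, 0, 1, 2 and 0 counts in D1, D2, D3, D4 and D7. No mutant oocyte reached the lowest control in CPM, and C3 lay within the wt/wt range when TMM was used. In CPM taken from library totals C3 (1.01) lay below the wt/wt range (1.83 to 7.27). It was still above every mutant oocyte (at most 0.426). In CPM the level was 3.21 ± 2.00 (SD, n = 5) in control and 0.242 ± 0.239 (SD, n = 5) in mutant oocytes, and the log2 fold change was -3.41 (SE 0.94, adjusted p = 0.0150). Taken as pooled counts, 4 in mutant against 38 in control oocytes, the ratio of rates was 0.0943 with an exact 95% Poisson interval of 0.0244 to 0.262, which covers counting error only. Sox2 passed the filter of at least 35 counts through the control oocytes, and without wt1 or without wt3 it fell below it and was not tested.

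**Figure D3:**
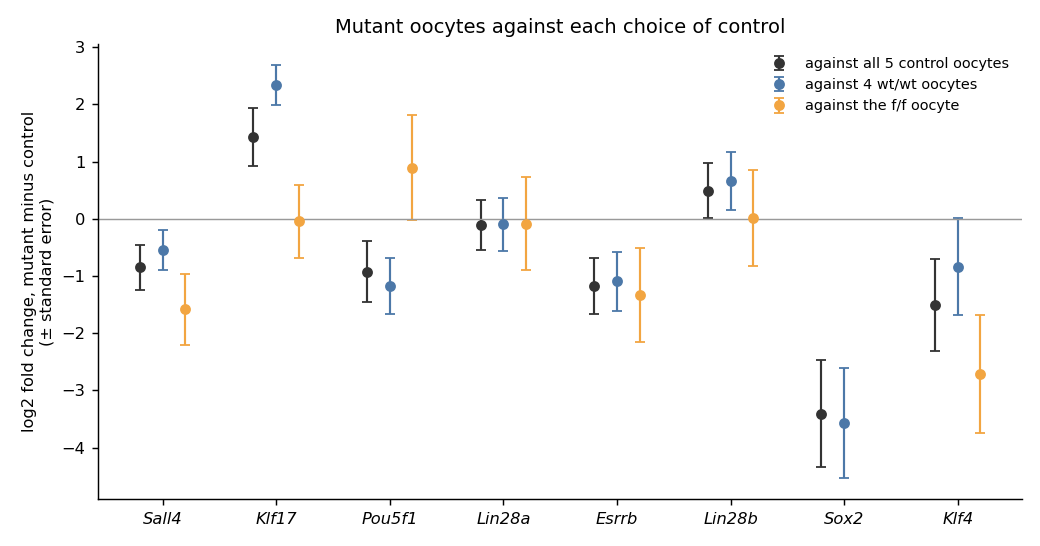
Log2 fold change of the 8 tested members, mutant minus control, with the standard error, against all 5 controls, against the 4 wt/wt oocytes and against C3. For Klf17 the value drops from 2.34 against wt/wt to -0.05 against C3, for Pou5f1 it turns from -1.17 to 0.89, and Sox2 has no value against C3 because it was not tested there.

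Pou5f1 encodes the POU factor OCT4. The gene lies on chromosome 17 from 35506018 to 35510772 on the plus strand and overlaps exons of the antisense gene Gm19553. Whether the counting used strand is not given in the sources used here, so reads of Gm19553 cannot be separated from it. Its level was 17.1, 12.5, 9.00 and 23.8 CPM in wt1, wt3, wt4 and wt5, and 3.77 CPM in C3. In D1, D2, D3, D4 and D7 it was 6.03, 9.75, 5.34, 4.87 and 8.97 CPM. C3 was thus the lowest of all 10 oocytes, and the mutant range overlapped the wt/wt range only at its edge. The log2 fold change was -0.92 (SE 0.53, adjusted p = 0.207) against all controls. It was -1.17 (SE 0.49, adjusted p = 0.0767) against wt/wt oocytes and 0.89 (SE 0.91, adjusted p = 0.618) against C3, so its direction depended on which control was used.

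Sall4 encodes a zinc finger protein that works with the NuRD chromatin remodelling complex, and its transcript is among the most abundant of the members. It lies on chromosome 2 from 168748332 to 168767943 on the minus strand, with exons overlapping Gm14261 on the other strand. It stood at 1458, 1112, 1047 and 910 CPM in wt1, wt3, wt4 and wt5, and at 2337 CPM in C3. In D1, D2, D3, D4 and D7 it stood at 451, 961, 1200, 392 and 811 CPM. In these TMM-adjusted CPM C3 was the highest of all oocytes. D2 and D3 lay within the wt/wt range, and D1, D4 and D7 lay below it. These placements changed with the scaling. In CPM taken from library totals C3 (1519) lay within the wt/wt range (1239 to 1918). All mutant oocytes (350 to 1038) then lay below every control. The log2 fold change was -0.85 (SE 0.40, adjusted p = 0.122) against all controls, -0.55 (SE 0.35, adjusted p = 0.245) against wt/wt oocytes and -1.58 (SE 0.62, adjusted p = 0.208) against C3. All of these values are negative and none passed the test, but with library totals in place of TMM, which lowers the median of all genes to -0.23, Sall4 was called lower at -1.19 (adjusted p = 0.0154).

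Because Sall4 and Klf17 had the most counts of the members, their ratio within an oocyte could be read without any scaling between oocytes. There were 0.0929, 0.165, 0.141 and 0.146 Klf17 counts per Sall4 count in wt1, wt3, wt4 and wt5, 0.338 in C3, and 0.899, 1.02, 0.879, 1.45 and 0.923 in D1, D2, D3, D4 and D7. The genotypes did not overlap in this ratio, and C3 lay between both sets. The pair was chosen after its values were seen, so no test between genotypes is given. The same ratio for Lin28b counts per Lin28a count ran from 0.274 to 1.18 in wt/wt oocytes, was 0.860 in C3 and ran from 0.312 to 2.06 in mutant oocytes, which overlap widely.

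**Figure D4:**
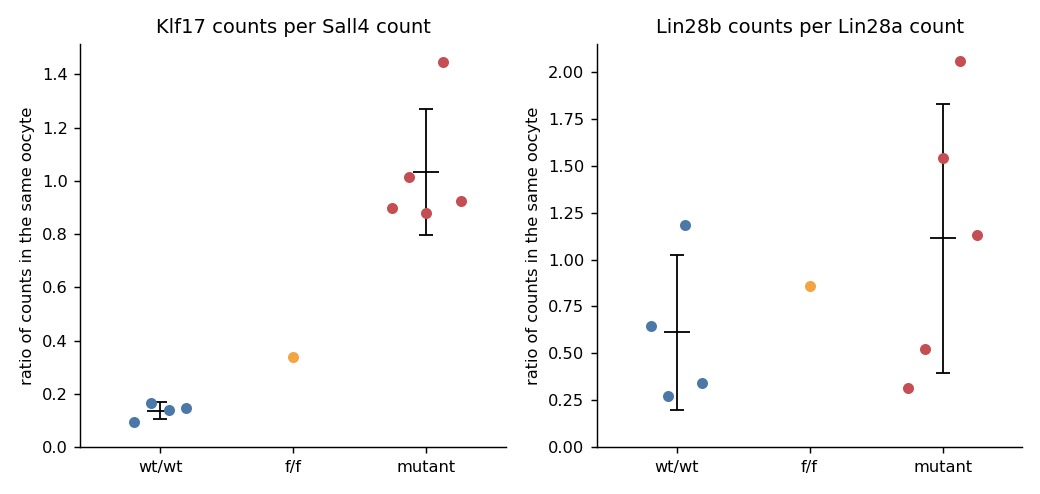
Ratio of counts of 2 members within the same oocyte, by genotype, with points for oocytes and bars for the mean ± SD of the wt/wt and mutant oocytes. Klf17 per Sall4 is 0.0929 to 0.165 in wt/wt oocytes, 0.338 in C3 and 0.879 to 1.45 in mutants, whereas Lin28b per Lin28a overlaps between genotypes.

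Of the other Klf members, Klf4 (chromosome 4 from 55527143 to 55532466, minus strand), a factor of the classical reprogramming cocktail, had 6.63, 6.47, 3.27 and 0.897 CPM in wt1, wt3, wt4 and wt5. It had 15.8 CPM in C3 and 1.65, 3.66, 3.20, 0.152 and 3.49 CPM in D1, D2, D3, D4 and D7. C3 was again highest, and wt/wt and mutant oocytes overlapped. The log2 fold change of -1.51 (SE 0.81, adjusted p = 0.175) became -0.83 (SE 0.84, adjusted p = 0.467) without C3. With 108 control and 26 mutant counts Klf4 too passed the filter through the control oocytes. Klf5 (chromosome 14 from 99298691 to 99315036, plus strand), which acts beside Klf4 in stem cells and in the blastocyst, had 1 count in D1, 3 in D7 and 0 in every other oocyte. The 4 mutant counts make 0.269 CPM (exact 95% Poisson interval 0.0734 to 0.690), and 3 counts over the control oocytes, the limit that a count of 0 allows, would make 0.225 CPM, so no difference was detectable at this depth.

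Esrrb encodes an orphan nuclear receptor that can stand in for other members of the stem cell network. It lies on chromosome 12 from 86361117 to 86521628 on the plus strand. Its level was 17.1, 16.8, 25.4 and 15.3 CPM in wt1, wt3, wt4 and wt5, 21.8 CPM in C3, and 15.9, 6.70, 8.19, 9.73 and 1.99 CPM in D1, D2, D3, D4 and D7. Here C3 sat with the wt/wt oocytes in TMM-adjusted CPM. D2, D3, D4 and D7 lay below every control while D1 did not. In CPM taken from library totals C3 (14.1) lay below the wt/wt oocytes (20.8 to 32.8). All mutant oocytes (1.87 to 12.4) then lay below every control. The log2 fold change was -1.18 (SE 0.49, adjusted p = 0.0870) against all controls, -1.10 (SE 0.52, adjusted p = 0.117) against wt/wt oocytes and -1.33 (SE 0.82, adjusted p = 0.392) against C3. The 3 values lay within a standard error of each other, but none passed the test. With library totals Esrrb was called lower at -1.62 (adjusted p = 0.0296), and so it was with limma voom at -1.35 (adjusted p = 0.0490).

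Zfp42 (chromosome 8 from 43295063 to 43306980, minus strand) had 3, 1, 0 and 4 counts in wt1, wt3, wt4 and wt5, 1 count in C3, and 3, 1, 4, 1 and 1 counts in D1, D2, D3, D4 and D7. With 10 counts in mutant and 9 in control oocytes, the ratio of rates was 0.995 (exact 95% Poisson interval 0.363 to 2.77, counting error only), so at this depth neither a lower nor a higher level could be seen. Zfp42 was not tested, because it had fewer counts than the filter required.

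Neither of the let-7 regulators was called. Lin28a (chromosome 4 from 134003330 to 134018841, minus strand, with exons overlapping Gm13061 on the other strand) had 28.2, 26.8, 15.5 and 30.1 CPM in wt1, wt3, wt4 and wt5, 25.3 CPM in C3 and 26.3, 29.2, 16.4, 7.91 and 37.4 CPM in D1, D2, D3, D4 and D7. The mutant oocytes spanned both ends of the control range, and the log2 fold change was -0.11 (SE 0.43, adjusted p = 0.870). Lin28b (chromosome 10 from 45376620 to 45486395, minus strand) had 18.2, 7.34, 18.4 and 10.3 CPM in wt1, wt3, wt4 and wt5, 21.8 CPM in C3 and 8.23, 15.2, 25.3, 16.3 and 42.4 CPM in D1, D2, D3, D4 and D7. Only D3 and D7 lay above the controls, and the log2 fold change was 0.49 (SE 0.49, adjusted p = 0.476). The Lin28a value was smaller than its SE and the Lin28b value about equal to it.

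The microRNA that these proteins hold back is shown by let-7a-5p as RefSeq gives it, with the seed (bases 2 to 8) in capitals.
let-7a-5p: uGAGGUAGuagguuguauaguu
Of 10 mature let-7 names in the table, 9 share that seed. The libraries were primed at poly(A) tails, so let-7 itself was not measured. Of the genes that process or degrade let-7 (such as Dicer1, Dgcr8 and Dis3l2), 8 of 14 in the count table were tested and none was called, with a median log2 fold change of -0.07. Of 18 let-7 targets with a row, 10 were tested, and 3 fell and none rose, with a median of -0.67, where 11.2% of all genes were called lower and 14.7% higher. Cdk6, a cell cycle kinase and a target in that list, had 1 count in control and 32 in mutant oocytes, too few for the filter. In the fit against wt/wt oocytes alone Cdk6 passed the filter through the mutant oocytes, where it is high. Its call as higher there (adjusted p = 0.0256) is therefore no support for a rise. Cdk6 was named after its values were seen. Igf2bp3, which binds and stabilises fetal messages, dropped from 223 ± 75.2 CPM (SD, n = 5) in control to 55.1 ± 13.2 CPM (SD, n = 5) in mutant oocytes (log2 fold change -2.02, adjusted p = 0.0012). Nras, a GTPase, and Tgfbr1, a TGF-beta receptor, had log2 fold changes of -2.04 and -1.34 (adjusted p = 0.0019 and 0.0173). Against C3 alone these 3 values were -2.63, -1.79 and -1.61, none of them called.

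Among 35 other genes of the pluripotency network, 19 were tested, 3 rose and 1 fell, with a median log2 fold change of 0.40, so that 4 of 19 were called where 25.9% of all genes were. Dppa3 (Stella), which protects the maternal genome from loss of DNA methylation, had 937 ± 144 CPM (SD, n = 4) in wt/wt oocytes, 5556 CPM in C3 and 9008 ± 2604 CPM (SD, n = 5) in mutant oocytes. Its log2 fold change was 2.27 (adjusted p = 0.0082) against all controls, 3.30 without C3 and 0.72 against C3. Dppa5a, an RNA-binding protein, and Zfp281, a zinc finger repressor, rose by 2.40 and 1.37 on the log2 scale. The Dppa5a call was lost without D4 (1.77, adjusted p = 0.0565) and under limma voom (2.01, adjusted p = 0.0516). That of Zfp281 was lost without any of 7 of the 10 oocytes (all but wt5, C3 and D4, adjusted p = 0.0507 to 0.0726) and under library totals. Of 22 alternatives, Dppa5a kept its call in 18 and Zfp281 in 11. Klf2, a relative of Klf4 and Klf17, fell by 3.12 on the log2 scale, from 15.4 ± 11.7 CPM (SD, n = 5) in control to 1.67 ± 1.09 CPM (SD, n = 5) in mutant oocytes, with 3.77 CPM in C3. Nanog, the homeobox factor of the network's core, had 20.04 to 80.3 CPM in wt/wt oocytes, 545 CPM in C3 and 37.3 to 236 CPM in mutant oocytes. Its log2 fold change of -0.77 (SE 0.73, adjusted p = 0.457) became 0.70 (SE 0.56, adjusted p = 0.352) without C3 and -1.51 without D2. Nr5a2, an orphan receptor, had a log2 fold change of -1.60 (adjusted p = 0.0916) over all controls and -1.88 (adjusted p = 0.0297) against wt/wt oocytes, and 0.78 (adjusted p = 0.778) against C3.

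In the families of the members the calls went both ways, beside 14.7% of all genes called higher and 11.2% lower. Of 14 other Klf genes 4 were tested, with a median log2 fold change of -0.73, and Klf2 and Klf10, a TGF-beta induced repressor, both fell, Klf10 by 1.93 on the log2 scale. Of 31 other Sox and Pou genes 5 were tested, with a median of -0.65, also with Sox13 at its bound. Sox6, known from muscle and cartilage, rose by 2.85 on the log2 scale (5.44 without C3), from 0.481 ± 0.567 CPM (SD, n = 4) in wt/wt oocytes and 11.5 CPM in C3 to 21.7 ± 5.97 CPM (SD, n = 5) in mutant oocytes, a call lost without wt1 or wt4 (adjusted p = 0.0555 and 0.0579). Sox13 had 40 counts in control oocytes and 0 in mutant oocytes, which makes it at least 14.9-fold lower against a limit of 3 counts over the mutant group. C3 had 0.222 CPM of Sox13, against 2.21 to 7.36 CPM in wt/wt oocytes and a mutant limit of 0.202 CPM, so the difference rests on the wt/wt oocytes. Sox13 passed the filter through the control oocytes, and it fell below the filter without wt4, without wt5 or with C3 as the only control. Of 16 genes of the Sall family and the NuRD complex, 14 were tested, with a median of 0.17. Chd4, the ATPase of NuRD, and Mta3, a scaffold subunit, rose by 2.28 and 1.77 on the log2 scale, Mta3 no longer without D1 (adjusted p = 0.0800), and Sall2 fell by 3.14 (-4.12 without D2). Sall2 (131 control and 15 mutant counts), Klf2 (178 and 30) and Nr5a2 (92 and 32) passed the filter through the control oocytes. None of the 6 tested nuclear receptors and cofactors of 11 listed was called (median -0.19). Of the YY1 relatives Yy1 and Yy2, Yy2, a retroposed copy of Yy1, rose by 3.17 on the log2 scale, with a list median of 1.51. It had 0.429 ± 0.496 CPM (SD, n = 4) in wt/wt oocytes, 6.88 CPM in C3 and 18.0 ± 10.8 CPM (SD, n = 5) in mutant oocytes, and its log2 fold change was 5.19 without C3 and 1.41 (adjusted p = 0.430) against C3 alone. Yy1 and Yy2 are in part alike in sequence, so their values are uncertain: reads that align to both were left out.

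**Figure D5:**
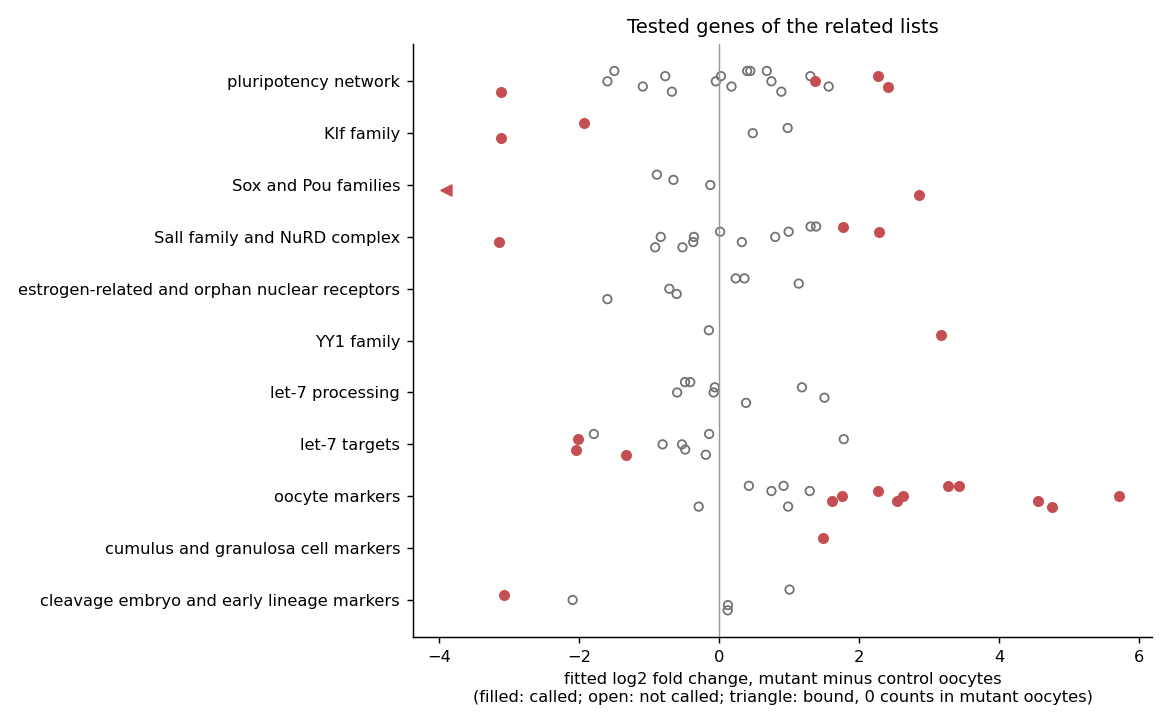
Log2 fold change, mutant minus control, of the tested genes in each related list; filled points were called, open points were not, and the triangle is the bound for Sox13, which had 0 counts in mutant oocytes. The oocyte markers lie mostly to the right, 10 of 16 called higher, and the let-7 targets mostly to the left, 3 of 10 called lower.

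Markers of the cells themselves moved with the groups. Of 16 oocyte markers, all tested, 10 rose and none fell in mutant oocytes, with a median log2 fold change of 2.02, where 14.7% of all genes rose. Dppa3, among the 10, and Tcl1 are also in the pluripotency list, so Dppa3 is counted in both. They were led by the zona protein gene Zp2 (4.75), the subcortical complex gene Ooep (4.55) and the germline factor Figla (5.71). Leaving out an oocyte moved Zp2 to 4.15 (without D1) or 5.39 (without wt5), Ooep to 3.802 (without D4) or 5.37 (without wt5) and Figla to 5.03 (without D4) or 6.97 (without C3). The summed level of these markers was 32170 to 54530 CPM in wt/wt oocytes, 106466 CPM in C3 and 89904 to 170910 CPM in mutant oocytes, so C3 lay within the mutant range. That sum is carried by a few abundant messages such as Gdf9 and H1foo, at 38321 and 27330 CPM in C3. The leading genes placed C3 elsewhere. Zp2 had 35.2 to 143 CPM in wt/wt oocytes, 36.6 CPM in C3 and 425 to 3805 CPM in mutant oocytes. Ooep had 29.4 to 301 CPM in wt/wt oocytes, 78.6 CPM in C3 and 575 to 6832 CPM in mutant oocytes, so for both genes C3 lay with the wt/wt oocytes. Figla had at most 0.409 CPM in wt/wt oocytes, 0.888 CPM in C3 and 0.997 to 48.1 CPM in mutant oocytes. With 5 control and 408 mutant counts it passed the filter through the mutant oocytes, and its fold rests on a control level near 0. Of the cumulus and granulosa list 1 of 18 genes was tested. This was Cyp19a1 (aromatase), which rose by 1.48 on the log2 scale, a call lost without wt3 (adjusted p = 0.0618) and under library totals. The summed level of that list was 9.42 to 55.8 CPM in wt/wt, 63.0 CPM in C3 and 82.9 to 147 CPM in mutant oocytes. Of 15 markers of cleavage embryos and early lineages 5 were tested, with a median of 0.12, and Gata4, an endoderm and granulosa factor, fell by 3.07. Against C3 alone, where only 3 genes of the whole table were called, no gene named from these lists was called (Sox13 was not tested), but their log2 fold changes differed in how far they held. Those of Zp2 (5.52), Ooep (5.05) and Dppa5a (3.63) were larger than against all controls, and those of Figla (4.43) and Gata4 (-2.61) were somewhat smaller. Those of Sox6 (0.94), Cyp19a1 (0.78), Dppa3 (0.72), Yy2 (1.41), Chd4 (1.25), Sall2 (-2.02), Klf10 (-0.92) and Klf2 (-1.11) were closer to 0, each without a test of the difference. The part of these markers in the values of the members was not tested.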

How the data were processed

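The deposited file holds whole read counts, 1 row for each RefSeq gene. The authors filtered reads, aligned them with TopHat (2.0.6 in the submitters' processing notes) to mm10, kept unique best alignments and counted with HTSeq, without normalization. Whether counting used strand is not given in the sources used here. The 14 libraries were summed to 10 oocytes by oocyte name, since 4 names occur on 2 libraries each. Genes were kept as the top 60% by total count of 15432 with a count (9198, at least 35 counts). They were tested in R 4.3.3 with edgeR 4.0.16 (TMM, glmQLFit, glmQLFTest, genotype only, Benjamini-Hochberg adjustment). CPM use TMM-adjusted library sizes. No molecular identifiers were used, so intervals and limits cover counting error only. Positions and transcript lengths came from GENCODE (GRCm38), matched by name for 22829 of 24064 genes, and sequences from RefSeq tables, where 8 of 10 members had a promoter entry (Sall4 and Klf5 did not). Named genes were all members, Kdm1a, up to 3 called genes in each direction per list by smallest p, and Nanog and Nr5a2. Outside this rule Cdk6 was named after its values were seen. Tcl1, Gdf9, H1foo, Yy1, Dicer1, Dgcr8 and Dis3l2 were named only to describe a list. The members and lists were chosen with earlier results of these data known. Alternatives were DESeq2 1.42.0, limma voom (limma 3.58.1), other scalings, filters, sample sets and controls, thinned counts, and leaving out each oocyte.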

Additional observations from a re-analysis of the deposited data

Results flagged for a closer look

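In 6 of 37 sets of values, taken over the 4 wt/wt, the 5 control or the 5 mutant oocytes, the highest oocyte stood apart from the others by Dixon's test (its gap to the nearest oocyte over the whole range), where chance, at 1 in 20, would give 1.85 if the sets were separate, which the wt/wt and control sets are not. Klf17 in control oocytes was highest in C3, with a gap of 0.923 of the range. Kdm1a was highest in C3 among control oocytes (0.805) and in D7 among mutant oocytes (0.714). Total counts were highest in C3 among control oocytes (0.907) and in D4 among mutant oocytes (0.750). C3 was the only control summed from a pair of libraries. D4, like D3 and D7 but not D1 and D2, was also such a sum, so these totals are in part set by the summing. The number of Klf17 counts per Sall4 count, a ratio chosen after its values were seen, was highest in D4 among mutant oocytes (0.759).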

How the results depend on the processing

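The number of genes called, 2384, ran from 1607 (without D1) to 2885 (without C3) when an oocyte was left out. It was 3 against the f/f oocyte alone and 966 with every library and the number in the descriptions as a replicate block. These numbers share no animal or day in the labels, and same-numbered libraries did not deviate together (correlations from -0.1282 to 0.0937). No member was called with that replicate block or against the f/f oocyte alone. Of the members, 4 were called under library totals (Klf17, Sox2, Sall4 and Esrrb) and 4 with every library as its own sample (Sox2, Sall4, Klf4 and Esrrb), where Klf17 lost its call at 0.98 (adjusted p = 0.118). The count was 1 with edgeR's filterByExpr or with 1 library per oocyte, and it ran from 0 to 2 when an oocyte was left out. Against the f/f oocyte alone Klf17 turned to -0.046, Pou5f1 to 0.89 and Nr5a2 to 0.78 (log2). Lin28a turned to 0.053 with thinned counts and ran from -0.29 (without D7) to 0.13 (without D4) when an oocyte was left out, turning also without D3 (0.018). Nanog ran from -1.51 (without D2) to 0.70 (without C3). Sox2 was tested in 18 of 22 alternatives and fell below the filter in the others, such as without wt1, without wt3 or against the f/f oocyte alone. It kept its sign in those 18 (-3.90 to -2.59) and its call in 17 of them. These are the fits in which its control counts carried it past the filter, so the share is not comparable with that of Klf17. Klf17 was tested in all 22 and kept its call in 10. The order of the members by level per kilobase in wt/wt oocytes was the same under library totals and with lengths limited to 3000 bases. Under library totals the median change over all genes went from 0.17 to -0.23 (log2) and that of the members from -0.89 to -1.34 (-0.43 with filterByExpr, -0.64 with the replicate block), and calls from 1353 higher and 1031 lower to 963 higher and 1668 lower. Low counts limit Sox2, Zfp42 and Klf5 most.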
